A study of Mus musculus with 20 samples.

Results

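The genes described here are 35 genes of glycolysis and of the cellular response to low oxygen, followed in endothelial cells sorted from mouse ears. Of the 35 symbols, 30 had a probe set that the array's annotation gives to that symbol alone, and where a gene had several such probe sets the brightest over all 20 arrays stood for it. Gpi1 and Eno1 were not found by symbol, and Aldoa, Bnip3l and Ankrd37 were found only on probe sets shared with other symbols, so these 5 have no value below. All 30 found genes passed the filter on low values, in a table of 22180 genes of which 14178 passed.

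The cells were CD31+CD45-Ter119- by flow sorting, taken from ears 24 hours after the ear was challenged with the hapten DNFB, a contact sensitiser, or was given vehicle. All mice are described as having received 5 daily tamoxifen injections, then DNFB on the skin on days 0 and 1 and the ear challenge on day 5. There were 6 vehicle and 6 DNFB arrays of mice labelled control, and 4 vehicle and 4 DNFB arrays of NICDiEC-OE mice, whose endothelium expresses an always active form of the Notch1 receptor, its intracellular domain (here NICD mice). The genotype label of the NICD mice names Pdgfb-CreERT2 while their growth protocol names CDH5-iCre, so the driver is not settled, and the labels do not say which alleles the control mice carried. Strain and age are not given in the sources used here. NICD vehicle replicate 4 is vehicle by title and DNFB by description, and was kept as vehicle. The labels number the replicates and do not say whether ears of one number came from 1 mouse, so p-values measure the spread between these samples.

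Glycolysis turns glucose into pyruvate in the cytosol, and lactate dehydrogenase turns pyruvate into lactate. Endothelial cells are known for relying on glycolysis even in well-oxygenated blood vessels. The hypoxia-inducible factors HIF-1 alpha (Hif1a) and HIF-2 alpha (Epas1) are marked for destruction in normal oxygen by prolyl hydroxylases (Egln1, Egln3) and the VHL protein, and in low oxygen they switch on glycolytic enzymes and other targets. Hif1a can also be raised by inflammatory signals, at the level of its transcript as well as its protein.

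Values are on the log2 scale of RMA (robust multi-array average, a background-corrected and normalized probe set summary), so a difference of 1 is a 2-fold change. The control and NICD arrays formed sets with different scales: array medians ran from 3.87 to 3.98 in control arrays and from 3.52 to 3.62 in NICD arrays. The control arrays were high for the Y-linked Eif2s3y (mean 6.75 with vehicle) and the NICD arrays for Xist (mean 9.0 with vehicle), so genotype, sex and array set cannot be told apart. Within a genotype, a comparison of DNFB with vehicle lies inside one set. The endothelial genes Pecam1 (mean 11.72 in control vehicle ears) and Cdh5 (11.77) were high in every group, as the labelled cell type requires. Some genes of other cells were high as well. On control vehicle arrays the keratinocyte genes Krt14 and Krt10 ran from 10.60 to 11.46 and from 9.50 to 10.64. The fibroblast gene Dcn ran from 9.60 to 10.56 there. On control DNFB arrays Krt14 ran from 11.14 to 12.27 and Pecam1 from 11.37 to 11.65. Skeletal muscle transcripts stood out in 4 control arrays (vehicle 1 and 2, DNFB 2 and 6), where muscle actin Acta1 ran from 7.96 to 9.20 against at most 6.23 in the other control arrays. They also stood out in 2 NICD arrays (vehicle 2 and DNFB 1), where Acta1 was 6.85 and 7.68 against at most 5.55 in the other NICD arrays. As a level for silent genes, the 95th percentile of 1440 probe sets of olfactory, vomeronasal and taste receptors was 3.95 in control vehicle and 3.49 in NICD vehicle ears.

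In control mice DNFB raised most steps of the lower part of glycolysis and lowered several classical hypoxia targets. Phosphoglycerate kinase Pgk1 rose 3.41-fold and hexokinase Hk2 rose 3.38-fold. Pyruvate kinase Pkm rose 1.95-fold, phosphoglycerate mutase Pgam1 1.83-fold and Hif1a 1.68-fold. The stress gene Ddit4, the fructose-2,6-bisphosphate enzyme Pfkfb3, the mitophagy receptor Bnip3, Ndrg1 and the oxygen sensor Egln3 all fell, to between 0.479 and 0.522 of the vehicle level. Of the 30 genes, 10 rose, 9 fell and 11 did not pass the threshold (limma adjusted p under 0.05, adjusted over 14886 probe sets). Among all probe sets tested 47.2% were called, 23.7% higher and 23.6% lower, and the median difference was 0.00 over the 30 genes and 0.00 over all probe sets. In NICD mice 10 rose and 9 fell as well, where 38.1% of all probe sets were called (20% higher and 18.1% lower).

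The balance of rises and falls differed between the glycolysis and pyruvate genes and the HIF and hypoxia target genes of the list. These divisions are not separate in function, because HIF factors also switch on glycolytic enzymes. Of 19 glycolysis and pyruvate genes measured, 9 rose and 4 fell in control mice, with a median difference of 0.33. Of 11 HIF and hypoxia target genes measured, 1 rose (Hif1a) and 5 fell, with a median of -0.22. In NICD mice these counts were 8 and 2 of 19 (median 0.33) and 2 and 7 of 11 (median -0.47). This division into roles was drawn up with earlier results of these data known, and the difference between the divisions was not tested. Of 39 other genes induced by low oxygen, described below, 14 rose and 16 fell in control mice. Over all probe sets 23.7% were higher and 23.6% lower there. The vehicle and DNFB arrays did not overlap for 9 genes that were higher and 6 that were lower in control mice, where 26.9% of all probe sets do not overlap (13.6% higher and 13.2% lower). In NICD mice this held for 10 and 9 genes, where 37.3% do not overlap (19.9% higher and 17.4% lower). In these bulk samples fewer cells of a type and less RNA per cell cannot be told apart.

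**Figure D1:**
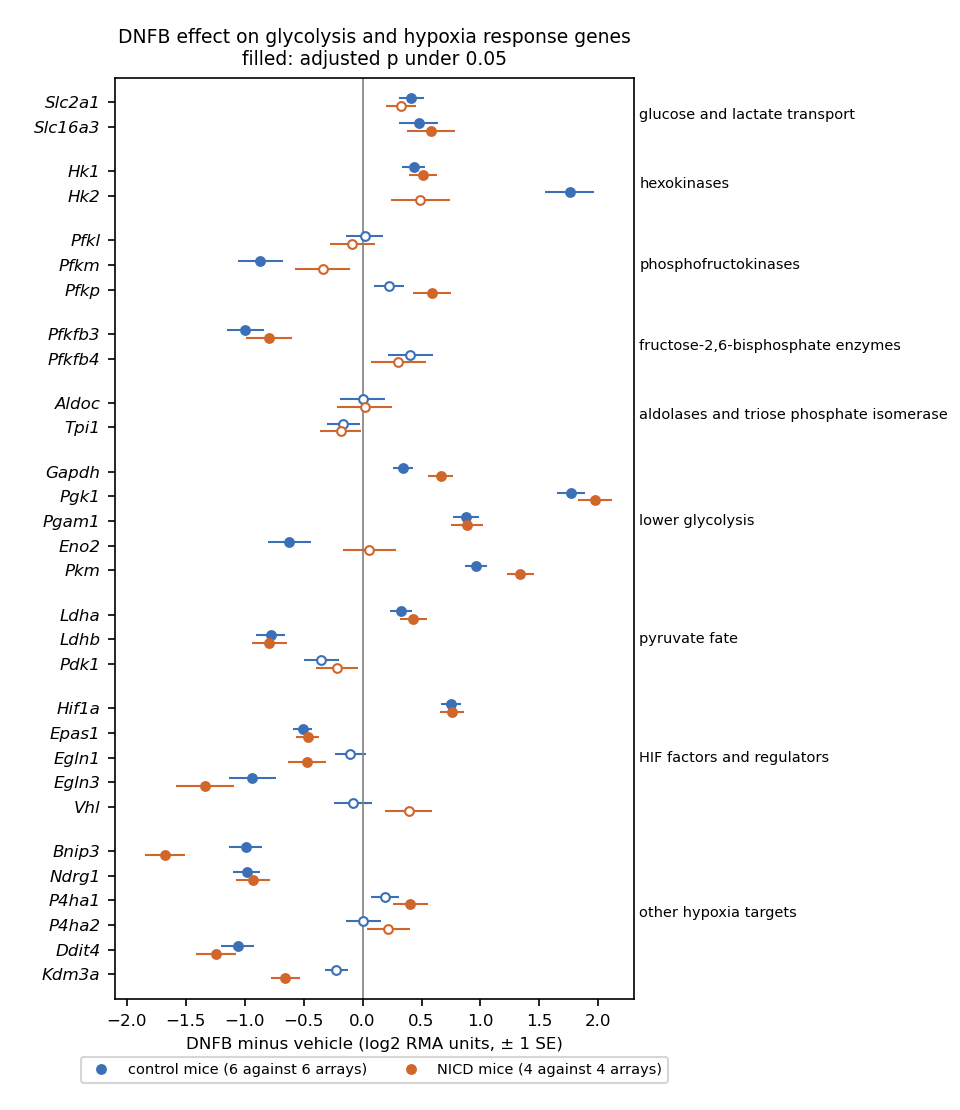
Difference between DNFB and vehicle ears on the log2 scale (horizontal axis, ± 1 SE) for the 30 measured genes, grouped by role. Blue points are control mice (6 against 6 arrays), orange points NICD mice (4 against 4 arrays), and filled points passed the threshold. Pgk1 lies farthest to the right in both genotypes, at 1.77 and 1.97, and Bnip3 farthest to the left in NICD mice, at -1.68.

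Markers of other cells moved with DNFB as well. All 7 neutrophil markers tested rose in control mice, and the log2 of their summed level over 10 markers ran from 6.54 to 6.86 in vehicle and from 8.71 to 10.89 in DNFB ears. Of 8 macrophage markers 5 rose, with summed levels of 7.59 to 8.33 and 8.63 to 9.25. The leukocyte gene Ptprc rose from 3.79 to 5.00. Of 9 keratinocyte markers 4 rose and 1 fell, with summed levels of 11.37 to 12.37 and 11.96 to 13.49. The rises were led by the wound keratins Krt16 (from 2.34 to 8.28) and Krt6a (from 3.52 to 8.34). Fibroblast markers rose in 3 of 8, with summed levels of 10.55 to 11.49 and 11.38 to 12.16. Pericyte and smooth muscle markers fell in 9 of 10 (12.86 to 13.16 with vehicle, 12.03 to 12.76 with DNFB) and endothelial markers in 9 of 10 (13.87 to 14.13 and 13.36 to 13.68). In NICD mice the summed levels with vehicle and with DNFB were 6.54 to 6.75 and 8.96 to 9.26 for neutrophils, 7.61 to 7.92 and 8.49 to 9.01 for macrophages, 11.53 to 12.28 and 12 to 12.59 for keratinocytes, 10.80 to 11.47 and 10.46 to 11.56 for fibroblasts, 12.64 to 12.96 and 11.79 to 12.14 for pericytes and smooth muscle, and 13.84 to 14.04 and 13.56 to 13.79 for endothelium. There 6 of 7 neutrophil, 4 of 8 macrophage and 3 of 9 keratinocyte markers rose, and 8 of 10 pericyte and 5 of 10 endothelial markers fell. Of 8 fibroblast markers 2 rose and 2 fell in NICD mice. Over all probe sets 23.7% were higher and 23.6% lower in control mice, and 20% and 18.1% in NICD mice. No marker is at 0 on this scale, but the neutrophil genes Camp, Ngp and Ly6g and the macrophage genes Adgre1 and C1qc did not pass the filter on low values. In control mice Camp ran from 2.17 to 2.97 with vehicle and from 2.07 to 2.82 with DNFB. Ngp ran from 2.82 to 3.62 and from 2.39 to 5.21, and Ly6g from 2.79 to 3.59 and from 2.58 to 4.64. The part of these cells in the changes of the glycolysis and hypoxia genes was not tested.

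HIF factors bind a core of the hypoxia response element that reads ACGTG or GCGTG, and these letters can be looked for in the promoters of these genes. RefSeq promoter windows on GRCm38.p6, from 250 bases before to 50 after the annotated start, were given for 32 of the 35 listed genes and 28 of the 30 measured ones (Epas1 and Ndrg1 had none). ACGTG on either strand was present for 10 of 10 genes that rose with DNFB in control mice, for 5 of 7 that fell and had a window, and for 4 of 11 that did not pass the threshold. Among all 27025 genes with a window, 21.8% have it. Over the measured genes it was 67.9%. GCGTG was present for 5 of 10, 5 of 7 and 9 of 11 genes, and for 35.2% of all genes. With either form counted, the core was present for 10 of 10 genes that rose, 6 of 7 that fell and 9 of 11 that did not pass, for 89.3% of the measured genes and for 46.7% of all genes. The shares of the 3 groups lie closer together with both forms counted than with ACGTG alone. These matches describe letters only, the motif was chosen after the expression values had been seen, and a match is not a bound site. The list was drawn up from glycolysis and hypoxia response genes, so a share above that of all genes may follow from this choice. All genes were not matched to the list for base composition or number of windows.

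The promoters of 5 genes are shown as the 250 bases before the start, 5′ to 3′ on the gene's own strand: those of the largest rises Pgk1 and Hk2, of the falls Ddit4 and Bnip3, and of Hif1a itself. Apart from Hif1a, they were picked as the largest changes among genes with a single window, which had to hold ACGTG. Capitals mark ACGTG or its reverse complement CACGT, which overlap where CACGTG stands, and GCGTG is left in lower case.
Pgk1, chrX:106186850-106187099, + strand: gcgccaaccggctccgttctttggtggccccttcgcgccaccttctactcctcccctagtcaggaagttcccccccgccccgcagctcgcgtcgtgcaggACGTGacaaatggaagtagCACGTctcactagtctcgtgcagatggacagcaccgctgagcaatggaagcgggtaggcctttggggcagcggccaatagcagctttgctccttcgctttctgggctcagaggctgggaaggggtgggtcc
Hk2, chr6:82774455-82774704, - strand: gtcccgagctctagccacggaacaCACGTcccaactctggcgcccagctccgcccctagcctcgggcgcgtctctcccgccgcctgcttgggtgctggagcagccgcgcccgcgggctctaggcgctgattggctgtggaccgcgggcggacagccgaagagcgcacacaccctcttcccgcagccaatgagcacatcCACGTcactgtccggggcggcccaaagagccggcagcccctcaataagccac
Ddit4, chr10:59951771-59952020, - strand: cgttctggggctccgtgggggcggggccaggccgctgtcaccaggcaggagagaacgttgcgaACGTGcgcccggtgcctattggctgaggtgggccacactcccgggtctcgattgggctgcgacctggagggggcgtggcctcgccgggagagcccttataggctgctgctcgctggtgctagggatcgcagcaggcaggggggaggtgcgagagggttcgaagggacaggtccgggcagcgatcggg
Bnip3, chr7:138909507-138909756, - strand: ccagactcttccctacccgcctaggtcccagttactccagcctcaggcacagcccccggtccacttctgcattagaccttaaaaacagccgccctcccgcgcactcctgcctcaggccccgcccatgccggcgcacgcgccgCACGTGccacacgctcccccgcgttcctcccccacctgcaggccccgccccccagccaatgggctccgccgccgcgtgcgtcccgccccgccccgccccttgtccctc
Hif1a, chr12:73907617-73907866, + strand: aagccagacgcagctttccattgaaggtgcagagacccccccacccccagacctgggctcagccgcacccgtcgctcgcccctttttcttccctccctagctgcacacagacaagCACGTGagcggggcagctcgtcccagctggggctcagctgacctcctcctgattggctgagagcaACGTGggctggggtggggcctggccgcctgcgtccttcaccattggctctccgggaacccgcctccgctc
The genes shown for their rises or falls carry ACGTG by the choice of genes to show. Pgk1 and Hk2 each have 2 matches in these bases, Ddit4 has 1, Bnip3 has 2 that overlap, and Hif1a has 3 of which 2 overlap.

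**Figure D2:**
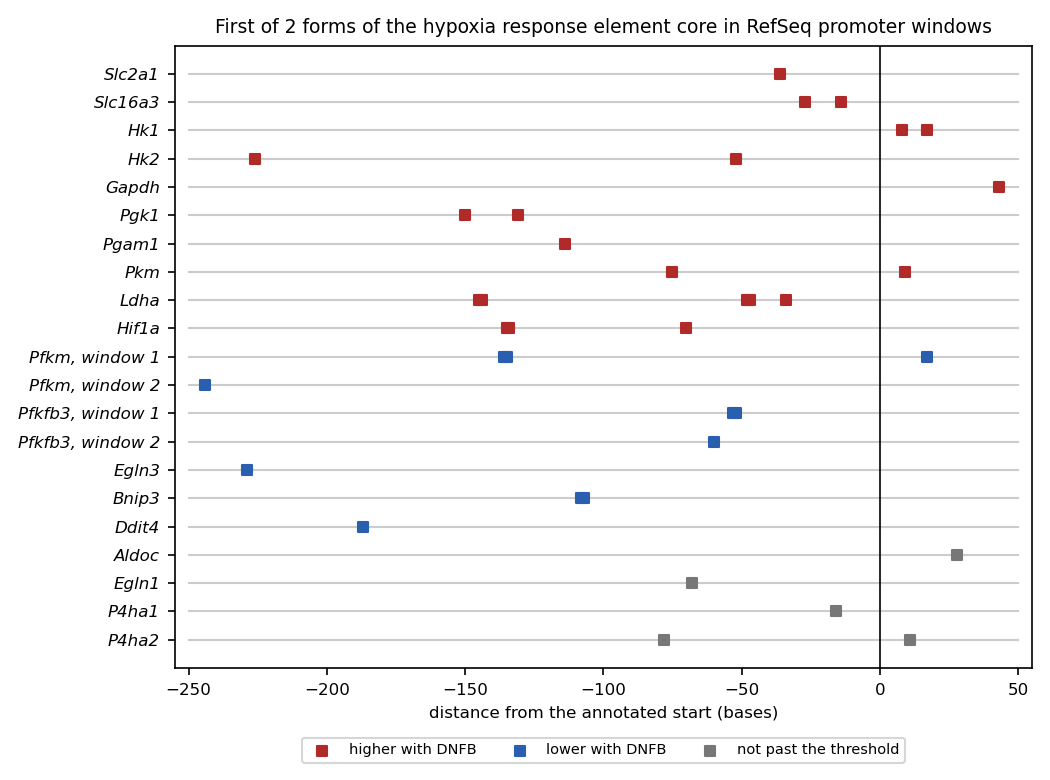
Position of ACGTG, the first of 2 forms of the hypoxia response element core, on either strand (squares) in RefSeq promoter windows of the measured genes that hold it, as distance from the annotated start in bases. Red genes rose and blue genes fell with DNFB in control mice, and grey genes did not pass the threshold. A gene with several windows that hold ACGTG has a row for each, and windows without it are not drawn. All 10 genes that rose are among them, as are 5 that fell.

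Both transporters at the ends of the pathway rose in control mice, and in NICD mice the lactate transporter passed while the glucose transporter missed the threshold. Slc2a1 encodes GLUT1, the main endothelial glucose importer. Its values in control mice had a lowest, median and highest of 9.96, 10.06 and 10.21 with vehicle and of 10.30, 10.40 and 10.81 with DNFB. In NICD mice the values were 9.47, 9.98, 9.94 and 9.76 with vehicle and 10.12, 10.18, 10.03 and 10.11 with DNFB. The groups did not overlap in either genotype, with a rise of 0.41 ± 0.11 (SE, adjusted p 0.00308) in control mice and a difference of 0.33 ± 0.13 that missed the threshold in NICD mice (adjusted p 0.0547). A second, dim Slc2a1 probe set (mean 3.55 over all arrays) differed by 0.01 in control mice and rose by 0.43 in NICD mice (adjusted p 0.0144), and with the mean of both probe sets the rise in control mice was no longer called (adjusted p 0.0515).

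Slc16a3 encodes MCT4, which exports lactate. In control mice it ran from 4.59 over a median of 4.78 to 5.13 with vehicle and from 4.68 over 5.28 to 5.79 with DNFB. In NICD mice it was 3.99, 3.96, 4.11 and 4.19 with vehicle and 4.45, 4.43, 4.81 and 4.87 with DNFB. The control groups overlapped and the NICD groups did not, and the rises were 0.48 ± 0.17 (adjusted p 0.0232) and 0.58 ± 0.20 (adjusted p 0.0306). The call in control mice was lost without DNFB replicate 1 (0.39), DNFB replicate 2 (0.38), vehicle replicate 3 (0.43) or DNFB replicate 6 (0.43), and without the 4 arrays with muscle transcripts the difference was 0.29 (adjusted p 0.24). The call in NICD mice was lost without vehicle replicate 1 (0.55), vehicle replicate 2 (0.54), DNFB replicate 3 (0.52) or DNFB replicate 4 (0.50), and without the 2 NICD arrays with muscle transcripts (0.60, adjusted p 0.0673).

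The hexokinases trap glucose in the cell as glucose 6-phosphate. Hk1, the widely expressed form, rose by 0.43 ± 0.10 in control mice (adjusted p 0.000995), from 5.98 ± 0.06 (SD, n = 6) to 6.41 ± 0.14, and by 0.52 ± 0.12 in NICD mice (adjusted p 0.00173). Hk2, the inducible form, had a lowest, median and highest of 3.73, 4.04 and 4.47 with vehicle and of 5.31, 5.87 and 6.33 with DNFB in control mice. In NICD mice Hk2 was 3.08, 3.78, 3.66 and 3.56 with vehicle and 4.39, 4.21, 3.32 and 4.12 with DNFB. Every control DNFB array stood above every vehicle array, whereas in NICD mice 1 DNFB array (replicate 3) lay among the vehicle arrays. The rise was 1.76 ± 0.21 in control mice (adjusted p 6.25e-07), and the difference in NICD mice was 0.49 ± 0.25 (adjusted p 0.139). With vehicle, 3 of 6 control arrays lay under the receptor level given above, so the control rise started from near background.

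The middle of the pathway moved less evenly. Of the phosphofructokinases, which commit sugar to glycolysis, the muscle form Pfkm fell by 0.87 ± 0.19 in control mice (adjusted p 0.000915), from 5.23 ± 0.37 to 4.36 ± 0.40 (SD, n = 6), and differed by -0.34 ± 0.24 in NICD mice (adjusted p 0.287). Without the 4 control arrays with muscle transcripts the Pfkm difference was -0.91. The platelet form Pfkp did not pass in control mice (0.22 ± 0.13, adjusted p 0.166) and rose by 0.59 ± 0.16 in NICD mice (adjusted p 0.00531). The liver form Pfkl differed by 0.02 ± 0.16 and -0.09 ± 0.19.

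Pfkfb3 makes fructose 2,6-bisphosphate, the strongest activator of phosphofructokinase, and is known for driving glycolysis in sprouting vessels. In control mice its values had a lowest, median and highest of 8.82, 9.44 and 9.56 with vehicle and of 8.02, 8.41 and 8.60 with DNFB. In NICD mice Pfkfb3 was 8.71, 9.28, 9.65 and 9.16 with vehicle and 8.14, 8.45, 8.42 and 8.61 with DNFB. Pfkfb3 was lower on every DNFB array than on every vehicle array of the same genotype, with falls of 1.00 ± 0.16 (adjusted p 2.45e-05) and 0.79 ± 0.19 (adjusted p 0.00245). Pfkfb4 lay near the receptor level in vehicle ears (mean 3.53 in control and 3.41 in NICD mice) and did not pass (0.41 ± 0.19 and 0.30 ± 0.23). Neither Aldoc nor triose phosphate isomerase Tpi1 passed in either genotype. Tpi1 differed by -0.16 ± 0.14 and -0.19 ± 0.18, and Aldoc was near the receptor level in NICD ears.

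Most of the lower steps, which yield ATP and pyruvate, rose in both genotypes. Pgk1, which makes the first ATP of the pathway and whose promoter with 2 core matches is shown above, ran from 7.38 over a median of 7.83 to 7.96 with vehicle and from 9.35 over 9.50 to 9.68 with DNFB in control mice. In NICD mice Pgk1 was 7.50, 7.63, 7.0 and 7.41 with vehicle and 9.46, 9.44, 9.30 and 9.24 with DNFB. The groups lay more than 1 log2 unit apart in both genotypes, and the rises were 1.77 ± 0.12 (adjusted p 2.85e-10) and 1.97 ± 0.14 (adjusted p 4.19e-09).

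Pgam1, which moves the phosphate group of phosphoglycerate, had a lowest, median and highest of 7.29, 7.61 and 7.77 with vehicle and of 8.15, 8.47 and 8.70 with DNFB in control mice. In NICD mice it was 7.71, 7.73, 7.49 and 7.56 with vehicle and 8.56, 8.73, 8.47 and 8.29 with DNFB. No DNFB array overlapped with a vehicle array, and the rises were 0.88 ± 0.11 (adjusted p 1.79e-06) and 0.89 ± 0.14 (adjusted p 2.83e-05). A second Pgam1 probe set rose by 0.57 in control mice.

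Pkm, which makes pyruvate, ran from 9.50 over a median of 9.72 to 9.97 with vehicle and from 10.58 over 10.68 to 10.89 with DNFB in control mice. In NICD mice Pkm was 8.71, 9.10, 9.01 and 9.06 with vehicle and 10.22, 10.23, 10.39 and 10.38 with DNFB. The NICD vehicle arrays were the lowest of the 4 groups, and the rises were 0.96 ± 0.09 (adjusted p 4.10e-08) and 1.34 ± 0.11 (adjusted p 2.04e-08). Gapdh, often taken as a reference gene, rose by 0.34 ± 0.09 in control mice (adjusted p 0.0026) and by 0.66 ± 0.11 in NICD mice (adjusted p 4.02e-05). Its other 2 probe sets with that symbol alone rose by 0.34 and 0.38 in control mice. Gapdh and Pgam1 have near-identical copies in the mouse genome, so their signal may include these.

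Of the 5 genes of the lower steps that were measured, only Eno2, the neuronal enolase, did not rise. Eno1, the other enolase of the list, has no value here, so the enolase step is seen through Eno2 alone. Eno2 fell by 0.62 ± 0.18 in control mice (adjusted p 0.00832), from 5.52 ± 0.29 to 4.89 ± 0.44 (SD, n = 6), while in NICD mice the difference was 0.05 ± 0.22 (adjusted p 0.88). Without the 4 control arrays with muscle transcripts the Eno2 difference was -0.52 and did not pass (adjusted p 0.0934).

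At the fate of pyruvate the 2 lactate dehydrogenase subunits moved in opposite directions. Ldha, the subunit that favours making lactate, ran from 6.93 over a median of 7.19 to 7.42 with vehicle and from 7.47 over 7.50 to 7.60 with DNFB in control mice. In NICD mice Ldha was 5.99, 5.96, 5.98 and 5.76 with vehicle and 6.49, 6.37, 6.20 and 6.34 with DNFB. All NICD arrays lay below all control arrays on the deposited scale, and Ldha rose by 0.33 ± 0.09 (adjusted p 0.00645) and 0.43 ± 0.11 (adjusted p 0.00515). Ldhb, the subunit that favours using lactate, fell by 0.78 ± 0.12 (adjusted p 2.24e-05), from 5.87 ± 0.21 to 5.08 ± 0.19 (SD, n = 6), and by 0.79 ± 0.15 in NICD mice (adjusted p 0.000263). Pdk1, a kinase that switches pyruvate dehydrogenase off, did not pass (-0.35 ± 0.14, adjusted p 0.0531, and -0.22 ± 0.18, adjusted p 0.363).

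The 2 HIF subunits also moved in opposite directions. Hif1a had a lowest, median and highest of 9.43, 9.58 and 9.71 with vehicle and of 10.07, 10.36 and 10.47 with DNFB in control mice. In NICD mice Hif1a was 9.06, 9.23, 9.27 and 9.08 with vehicle and 9.86, 9.94, 9.87 and 10 with DNFB. Every DNFB array was above every vehicle array of its genotype, and the rises were 0.75 ± 0.08 (adjusted p 3.48e-07) and 0.76 ± 0.10 (adjusted p 7.04e-06). A dim second Hif1a probe set (mean 3.54) differed by 0.39 in control mice (adjusted p 0.111) and by -0.11 in NICD mice (adjusted p 0.761).

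Epas1, the HIF subunit typical of endothelium, ran from 11.22 over a median of 11.34 to 11.54 with vehicle and from 10.65 over 10.84 to 11.04 with DNFB in control mice. In NICD mice Epas1 was 11.57, 11.41, 11.46 and 11.49 with vehicle and 11.07, 11.01, 10.94 and 11.06 with DNFB. The groups did not overlap, and the falls were 0.51 ± 0.08 (adjusted p 2.73e-05) and 0.46 ± 0.10 (adjusted p 0.000807).

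Egln3, a prolyl hydroxylase that is itself a HIF target, had a lowest, median and highest of 7.36, 8.12 and 8.71 with vehicle and of 6.96, 7.09 and 7.47 with DNFB in control mice. In NICD mice Egln3 was 8.83, 8.49, 8.19 and 8.56 with vehicle and 7.66, 7.41, 6.67 and 6.97 with DNFB. Only control vehicle replicate 1 overlapped with the DNFB arrays, and the falls were 0.94 ± 0.20 (adjusted p 0.000606) and 1.34 ± 0.24 (adjusted p 0.000194). The other prolyl hydroxylase, Egln1, did not pass in control mice (-0.10 ± 0.13) and fell by 0.47 ± 0.16 in NICD mice (adjusted p 0.0253). That Egln1 call was lost without NICD DNFB replicate 1 (-0.42), vehicle replicate 1 (-0.38) or DNFB replicate 4 (-0.43), and without the 2 NICD arrays with muscle transcripts (-0.48, adjusted p 0.0613). Vhl did not pass in either genotype (-0.08 ± 0.16 and 0.39 ± 0.20), although its NICD DNFB arrays all lay above the NICD vehicle arrays.

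**Figure D3:**
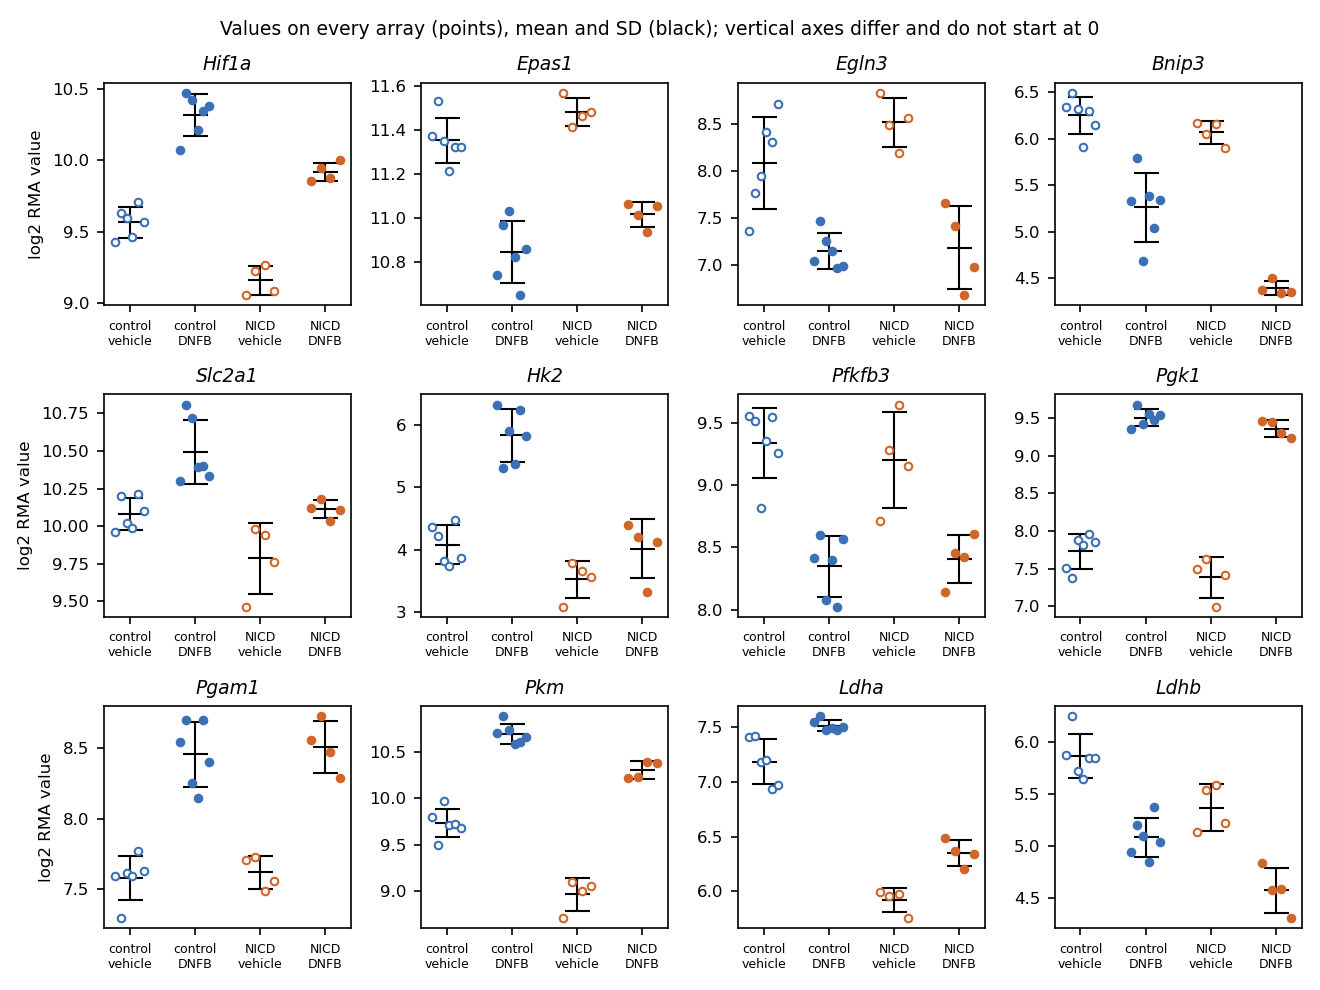
Log2 RMA values of 12 of the genes on every array, by group (open points vehicle, filled points DNFB, blue control mice, orange NICD mice), with the mean and SD in black; the vertical axes differ and do not start at 0. Hif1a, Pgk1, Pgam1 and Pkm are higher on every DNFB array than on every vehicle array of the same genotype, Epas1, Pfkfb3, Ldhb and Bnip3 are lower, and Hk2 separates in control mice alone.

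The remaining hypoxia targets fell or did not pass in control mice. Bnip3, a receptor for removing mitochondria, ran from 5.91 over a median of 6.31 to 6.49 with vehicle and from 4.68 over 5.33 to 5.80 with DNFB. In NICD mice Bnip3 was 6.16, 6.06, 6.16 and 5.90 with vehicle and 4.37, 4.50, 4.34 and 4.35 with DNFB. The NICD DNFB arrays were tightly grouped below all others, and the falls were 0.99 ± 0.14 (adjusted p 6.88e-06) and 1.68 ± 0.17 (adjusted p 2.29e-07).

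Ddit4 encodes REDD1, an inhibitor of mTOR signalling that hypoxia and glucocorticoids induce. It had a lowest, median and highest of 7.58, 7.75 and 8.13 with vehicle and of 6.49, 6.75 and 7.13 with DNFB in control mice. In NICD mice Ddit4 was 7.06, 7.13, 7.56 and 7.50 with vehicle and 5.84, 6.07, 5.91 and 6.43 with DNFB. Ddit4 separated the treatments in both genotypes, with falls of 1.06 ± 0.14 (adjusted p 2.11e-06) and 1.25 ± 0.17 (adjusted p 6.19e-06).

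Ndrg1, a stress-responsive gene induced by low oxygen, ran from 11.31 over a median of 11.44 to 11.56 with vehicle and from 10.07 over 10.47 to 10.89 with DNFB in control mice. In NICD mice Ndrg1 was 11.01, 11.17, 11.03 and 11.15 with vehicle and 10.38, 10.18, 10.09 and 9.99 with DNFB. The falls were 0.99 ± 0.12 (adjusted p 7.02e-07) and 0.93 ± 0.14 (adjusted p 2.90e-05), and a second Ndrg1 probe set fell by 1.04 in control mice.

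The collagen prolyl hydroxylases and the histone demethylase Kdm3a passed in NICD mice or not at all. P4ha1 differed by 0.19 ± 0.12 in control mice and rose by 0.40 ± 0.15 in NICD mice (adjusted p 0.0371). That call was lost in 6 of 8 fits that each left out 1 array, where the difference ran from 0.29 to 0.52. The 6 arrays were NICD vehicle 1, 2 and 4 and NICD DNFB 1, 2 and 4. Without the 2 NICD arrays with muscle transcripts the P4ha1 difference was 0.36 (adjusted p 0.144). P4ha2 differed by 0.01 ± 0.15 and 0.22 ± 0.18. Kdm3a differed by -0.22 ± 0.10 in control mice (adjusted p 0.0685) and fell by 0.65 ± 0.12 in NICD mice (adjusted p 0.00019).

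Pairs within the list were set against each other on each array. The pairs were chosen after their values had been seen, so their ratios are a description with no test. The log2 ratio of Hif1a to Epas1 was higher with DNFB by 1.26 ± 0.07 (SE) in control mice and by 1.22 ± 0.09 in NICD mice. The ratio of Ldha to Ldhb was higher by 1.11 ± 0.12 and 1.22 ± 0.14. The ratio of Hk2 to Hk1 was higher by 1.32 ± 0.26 in control mice, and in NICD mice it differed by -0.03 ± 0.30.

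Of the 30 genes, 26 had a DNFB difference of the same sign in both genotypes and 4 did not (Pfkl, Aldoc, Eno2 and Vhl). The same 8 genes rose in both (Hk1, Gapdh, Pgk1, Pgam1, Pkm, Ldha, Slc16a3 and Hif1a), the same 7 fell in both (Pfkfb3, Ldhb, Epas1, Egln3, Bnip3, Ndrg1 and Ddit4), and 0 moved in opposite directions past the threshold. The genes that passed in control mice alone were 4 (Hk2, Pfkm, Eno2 and Slc2a1), those in NICD mice alone 4 (Pfkp, Egln1, P4ha1 and Kdm3a), and 7 passed in neither. Across the 30 genes the differences had a Pearson r of 0.884 and a Spearman rho of 0.923, given as a description, since genes of one array set are not independent. Of all probe sets 47.2% were called in control mice and 38.1% in NICD mice. Agreement between the genotypes was not computed over all probe sets, so it is not shown to be particular to these genes.

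No gene of the list passed the test of the difference between the genotypes' DNFB effects. In limma 0 of 30 had an adjusted p under 0.05, against 0.0134% of all probe sets (0.00672% higher and 0.00672% lower), and 6 of 30 had an unadjusted p under 0.05, against 10.6% of all. The largest difference was for Hk2, whose DNFB effect was lower in NICD mice by 1.27 ± 0.33 (95% interval -1.95 to -0.59, adjusted p 0.16). Next came Bnip3, whose fall was deeper by 0.69 ± 0.22 in NICD mice (adjusted p 0.273), and Kdm3a (-0.43 ± 0.15, adjusted p 0.324). The effects on Pkm (0.38 ± 0.15), Gapdh (0.32 ± 0.14) and Eno2 (0.68 ± 0.29) were more positive in NICD mice (adjusted p 0.351 to 0.411). For Hif1a the 95% interval of the difference ran from -0.27 to 0.29, for Pgam1 from -0.35 to 0.38, and for Pgk1 from -0.18 to 0.59. A gene that passed in one genotype and not in the other is thus not shown to differ between them.

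Genotype itself was compared on values quantile-normalized over all 20 arrays, because the 2 sets differ in scale. In vehicle ears 1 of 30 genes was higher in NICD than in control mice (Hk1) and 6 were lower (Pfkp, Eno2, Pkm, Ldha, Hif1a and Vhl), where 16.2% of all probe sets were called (6.85% higher and 9.35% lower). In DNFB ears 1 was higher (Hk1) and 7 lower (Hk2, Pkm, Ldha, Slc2a1, Hif1a, Ddit4 and Kdm3a), where 23.9% were called (11.9% higher and 11.9% lower). The scaling sets the balance. Of all called probe sets in vehicle ears, 42.3% were higher in NICD mice with quantile normalization, 8.01% on the values as deposited, 64.5% with median centring and 50.1% with cyclic loess. In DNFB ears the shares were 50%, 13.4%, 71.8% and 51.8%. The median of all probe sets was lower in NICD mice by 0.28 (vehicle) and 0.27 (DNFB) on the deposited values, and differed by -0.04 and 0.00 after quantile normalization. For 9 of the 30 genes in vehicle ears and 7 in DNFB ears, the direction depended on which scaling was used.

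A few genes were lower in NICD mice under all 4 scalings, and 0 were higher under all 4. In vehicle ears these were Eno2, Pkm, Ldha and Vhl, where 8.21% of probe sets pass under all 4 (2.83% higher and 5.38% lower). In DNFB ears they were Hk2, Ldha and Kdm3a, where 12.2% pass (5.34% higher and 6.89% lower). Ldha was lower by 1.06 ± 0.11 in vehicle ears (adjusted p 4.18e-06) and by 0.94 ± 0.11 in DNFB ears (adjusted p 1.29e-05), with -1.27 to -0.94 and -1.16 to -0.79 over the scalings. Pkm was lower by 0.67 ± 0.10 in vehicle ears (adjusted p 0.000229, -0.77 to -0.44). Hk2 was lower by 1.46 ± 0.24 in DNFB ears (adjusted p 0.000303, -1.82 to -1.37), and was near background in vehicle ears of both genotypes.

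Eno2 in vehicle ears had a lowest, median and highest of 5.10, 5.51 and 5.95 in control mice and was 4.13, 4.19, 4.60 and 4.50 in NICD mice on the deposited scale. It was lower by 0.82 ± 0.21 after quantile normalization (adjusted p 0.0111, -1.16 to -0.78 over the scalings). In DNFB ears Eno2 ran from 4.62 over a median of 4.68 to 5.74 in control mice and was 4.10, 4.76, 4.26 and 4.52 in NICD mice, so that the groups overlapped there. Vhl in vehicle ears ran from 4.37 over a median of 4.69 to 5.19 in control mice and was 3.42, 3.18, 3.29 and 3.58 in NICD mice, near the receptor level. In DNFB ears Vhl ran from 4.01 over 4.68 to 5.14 in control mice and was 3.64, 4.06, 3.73 and 3.60 in NICD mice. The Vhl difference in vehicle ears was -1.02 ± 0.19 (adjusted p 0.00113, -1.35 to -0.93).

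Kdm3a in vehicle ears ran from 7.96 over a median of 8.11 to 8.26 in control mice and was 8.01, 7.88, 7.81 and 7.66 in NICD mice. In DNFB ears it ran from 7.68 over 7.86 to 8.24 in control mice and was 7.14, 7.23, 7.21 and 7.15 in NICD mice. The 4 NICD DNFB arrays were the lowest of the series for Kdm3a, with a genotype difference in DNFB ears of -0.54 ± 0.11 (adjusted p 0.00227, -0.72 to -0.34). All of these genotype differences also separate the sexes and the array sets.

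**Figure D4:**
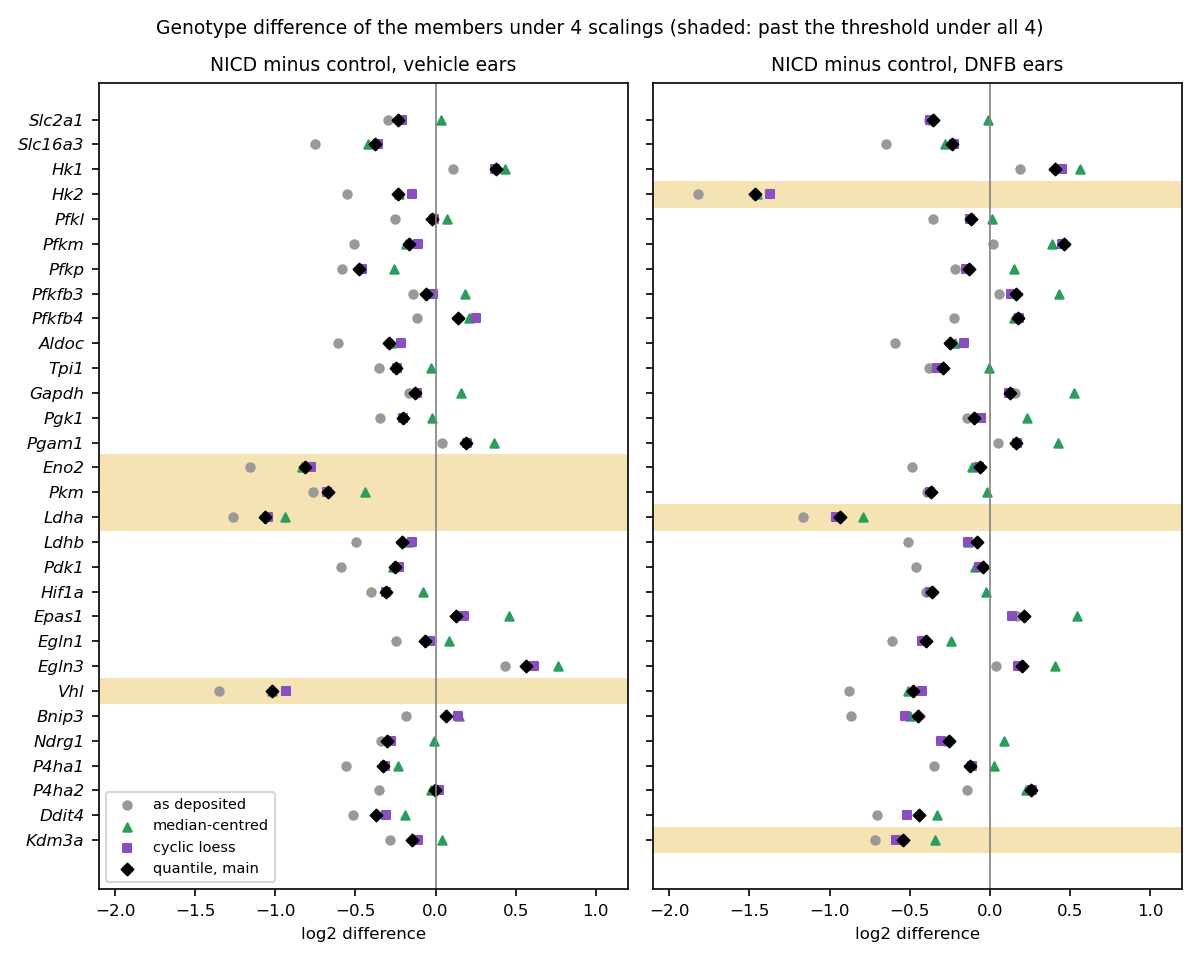
Difference between NICD and control mice (log2, horizontal axis) for the 30 genes in vehicle ears (left) and DNFB ears (right), under 4 scalings of the arrays. Shaded genes passed the threshold under all 4 scalings: 4 in vehicle ears and 3 in DNFB ears, all lower in NICD mice. Grey points, the values as deposited, lie mostly to the left of the others.

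Other genes of glycolysis and pyruvate use gave a similar mixture. Of 25 tested, 9 rose and 6 fell in control mice, with a median difference of 0.19, and 8 rose and 3 fell in NICD mice, with a median of 0.33. Over all probe sets 47.2% were called in control mice (23.7% higher and 23.6% lower) and 38.1% in NICD mice (20% higher and 18.1% lower), which is the background for this list and the lists that follow. The lactate transporter Slc16a1 (MCT1) rose by 1.80 ± 0.18 in control mice (adjusted p 8.40e-08) and 1.83 ± 0.22 in NICD mice. Phosphoglucomutase Pgm2 rose by 1.17 ± 0.08 and 1.17 ± 0.09, the mitochondrial pyruvate carrier Mpc1 by 0.90 ± 0.18 and 1.06 ± 0.23, and the pyruvate dehydrogenase component Pdhx by 0.81 ± 0.13 and 0.70 ± 0.16. The largest falls were in kinases that switch pyruvate dehydrogenase off and in the insulin-responsive glucose transporter. Pdk2 fell by 1.65 ± 0.15 and 1.47 ± 0.19. Pdk4 fell by 1.26 ± 0.19 in control mice and differed by -0.47 ± 0.23 in NICD mice (adjusted p 0.128). Slc2a4 (GLUT4) fell by 1.15 ± 0.23 and 0.95 ± 0.28.

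In the machinery that builds and degrades the HIF factors, 3 of 11 genes tested rose and 4 fell in control mice, and 2 and 4 in NICD mice. The parts of the VHL ubiquitin ligase Eloc (0.85 ± 0.10 and 1.23 ± 0.13) and Elob (0.32 ± 0.10 and 0.67 ± 0.12) rose in both genotypes. Cul2, its scaffold, rose by 0.82 ± 0.17 in control mice and differed by 0.34 ± 0.21 in NICD mice (adjusted p 0.214). Hif3a, which can restrain the other HIF subunits, fell by 1.46 ± 0.21 and 0.84 ± 0.26. With DNFB it ran from 2.83 to 3.70 in control mice and from 3.33 to 3.38 in NICD mice. These values lie under the receptor levels of 3.90 and 3.48 in those groups, so its fall ended in background. The HIF coactivator Ep300 fell by 0.41 ± 0.08 and 0.56 ± 0.10. Cited2, which competes with HIF-1 alpha for that coactivator, fell by 0.47 ± 0.10 and 0.48 ± 0.13.

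Of 39 other genes known to be induced by low oxygen, 14 rose and 16 fell in control mice (median -0.11), and 12 rose and 10 fell in NICD mice (median 0.03), against the 47.2% and 38.1% called over all probe sets. Heme oxygenase Hmox1, which inflammation and oxidative stress also induce, rose by 3.09 ± 0.21 in control mice (8.52-fold) and by 2.90 ± 0.26 in NICD mice. The lipid droplet gene Hilpda rose by 1.64 ± 0.12 and 1.00 ± 0.15, the transferrin receptor Tfrc by 1.26 ± 0.15 and 1.35 ± 0.18, and the vascular growth factor Vegfa by 1.10 ± 0.19 and 0.90 ± 0.23. Zfp395 fell by 1.71 ± 0.10 and 1.69 ± 0.12, Selenbp1 by 1.24 ± 0.20 and 1.63 ± 0.25, and Narf by 1.24 ± 0.15 and 1.39 ± 0.18. The difference between the genotypes' DNFB effects passed for 0 of the 75 genes of these lists that were tested.

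**Figure D5:**
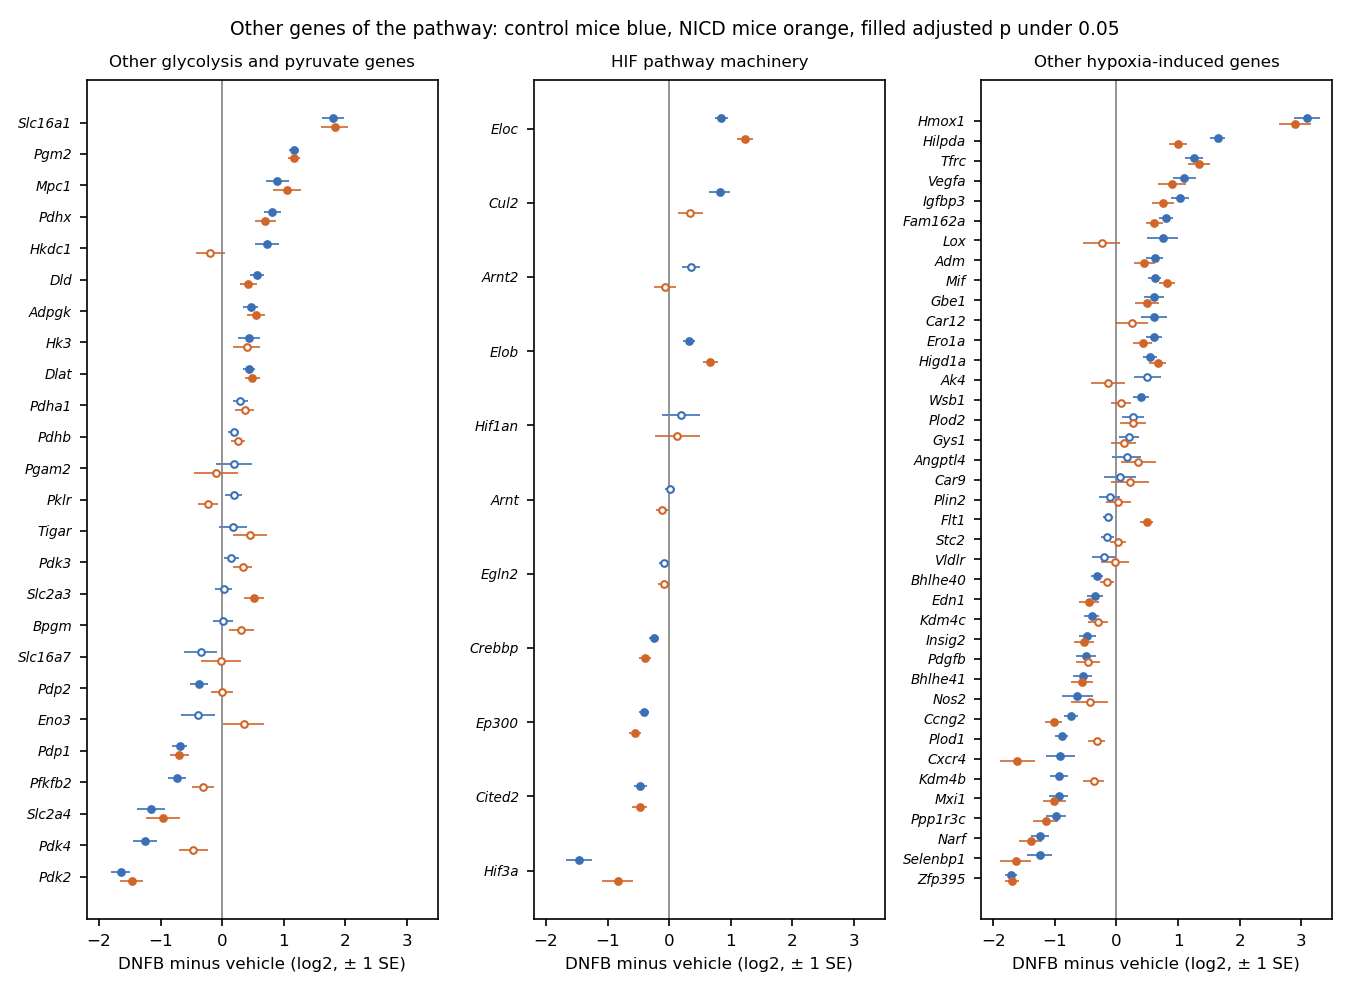
Difference between DNFB and vehicle ears (log2, ± 1 SE) for other genes of glycolysis and pyruvate use, of the HIF machinery and of the hypoxia response, sorted by the control difference. Blue points are control mice, orange points NICD mice, and filled points passed the threshold. Hmox1 lies farthest to the right, at 3.09, and Zfp395 farthest to the left among the hypoxia genes in control mice, at -1.71.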

How the data were processed

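Gene expression was measured on 20 Affymetrix mouse arrays, 1 per sample, from 1 ng of RNA amplified with the WT Pico kit, per the labels' protocols. What was deposited is 1 log2 value per probe set and array. The authors computed it by RMA in Affymetrix Expression Console, per the submitters' processing notes. Its version, options and annotation are not given in the sources used here, and no scanner intensities were used.

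Groups came from the sample titles. The filter kept 14886 of 41345 probe sets: those annotated with a single gene symbol and brighter than the median of their array on 4 or more arrays. A linear model with a mean for each of the 4 groups was fitted across all of these in limma (version 3.58.1, R 4.3.3). P-values were adjusted by Benjamini-Hochberg over the 14886 probe sets, and 0.05 was the threshold. DNFB comparisons and their difference used the values as deposited. Genotype comparisons used quantile-normalized values. The comparison of DNFB with vehicle in control mice was tested on simulated data with known changes. The genotype comparisons, their normalization and the difference of the DNFB effects were not simulated. No sample was dropped or imputed. Precision is limited by the number of arrays: the pooled SD within groups had a median of 0.231 over the 30 genes and 0.26 over all probe sets kept. Alternatives were other filters, scalings, variance models, array weights, probe set rules, blocks for the replicate number and each array left out.

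The members, the lists of other genes and the markers were chosen with earlier results of these data known. Values by sample (for groups of 6, the lowest, median and highest) are given for Hif1a, Epas1, the 6 largest rises and 5 largest falls with DNFB in control mice, and genes that differed by genotype under every scaling. Of the other lists, up to 4 rises and 3 falls each are named. Values by sample of Slc2a1, the ratios of gene pairs, the promoter motif and the fits without arrays with muscle transcripts were chosen after the values were seen. Promoters are those of RefSeq (GRCm38.p6). Python 3.11.15 and matplotlib 3.10.9 made the plots.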

Additional observations from a re-analysis of the deposited data

Results flagged for a closer look

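In 6 of 120 groups of array values of the 30 genes (4 groups for each gene), 1 array stood apart from the rest of its group by Dixon's criterion at the 95% level, and about 6 are expected by chance. Hk1 was highest on control DNFB replicate 2 at 6.69, where the others ran from 6.29 to 6.41. Pfkp was lowest on control vehicle replicate 2 at 8.65 (others 8.98 to 9.16), and so was Pgam1 at 7.29 (others 7.59 to 7.77). Both of these arrays are among those with high muscle transcripts. Aldoc was lowest on control vehicle replicate 3 at 3.65 (others 4.03 to 4.13), below the receptor level. Eno2 was highest on control DNFB replicate 4 at 5.74 (others 4.62 to 5.02), and without that array its fall in control mice was 0.79 in place of 0.62. Ldha was lowest on NICD vehicle replicate 4, the array with conflicting labels, at 5.76 (others 5.96 to 5.99), on the side away from the DNFB arrays.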

How the results depend on the processing

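The numbers of genes called for DNFB moved little. Over the other settings of filter, scaling, variance model, weights, probe set rule and samples, 18 to 20 genes were called in control and in NICD mice (19 and 19 in the main analysis). Leaving out 1 array at a time gave 18 to 20 in control mice and 16 to 20 in NICD mice. Without the arrays with muscle transcripts, a setting added after the data were seen, 18 and 16 were called. For genotype, the values as deposited called 15 genes in vehicle ears and 15 in DNFB ears, all lower in NICD mice, where 35.9% and 40.5% of all probe sets were called (16.2% and 23.9% after quantile normalization), against 7 and 8 after quantile normalization and 5 to 7 and 6 to 10 under the other settings, and leaving out 1 array gave 5 to 8 and 6 to 9. The difference of the DNFB effects called 0 under every setting run. The direction of 1 single-gene result reversed: with the mean of both probe sets, Slc2a1 in DNFB ears was 0.0149 higher in NICD mice in place of 0.36 lower. That mean weighs the dim probe set equally. Of 1136 values of called genes under other settings, 1068 kept direction and call and 67 kept direction but missed the threshold. These were for Slc16a3, Egln1, P4ha1, Eno2, Slc2a1 and Hif1a with DNFB, and for Ddit4, Hif1a, Hk1, Pkm, Slc2a1 and Pfkp between genotypes. With the mean of probe sets Hif1a missed the threshold in NICD mice (adjusted p 0.107).

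The replicate numbers were not taken to pair the arrays, because the labels do not say that they do. Correlations between same-numbered vehicle and DNFB arrays, as deviations from group means, were all positive and ran from 0.0418 to 0.269. Among the 6 control or 4 NICD vehicle arrays, 7 of 10 DNFB arrays correlated best with their own number. That is more than unrelated numbers would give on average. Without a label for it, whether the numbers mark pairs is not settled. With the replicate number as a random block 20 genes were called in control and 20 in NICD mice, with a fixed block 20 and 19, and the random block left 7 and 8 called between genotypes. The fixed block cannot be fitted between genotypes. Depth is not defined for arrays. Genes near the receptor level (Pfkfb4, Aldoc, Vhl in NICD mice, Hk2 with vehicle and Hif3a with DNFB) can show understated differences.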
